A study of Rattus norvegicus with 16 samples.

Results

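The enzymes described here turn long-chain fatty acids into acyl-CoA, carry them into mitochondria and break them down by β-oxidation in mitochondria and peroxisomes. The list held 33 genes and names them by function. The rule for membership used no difference between groups, but the list was chosen with earlier results of these data known. Of the 33 genes, 32 were measured, on 44 probe sets out of the 31042 probe sets and 14217 named genes of the array. Acaa1a, which encodes a peroxisomal thiolase, was covered only by a probe set that the annotation assigns to several genes, and no value of it is given. A gene with several probe sets was read from the probe set of highest mean, and dimmer probe sets are described for Acsl1, Acsl5, Acsl6, Cpt1a, Eci1, Hadha and Acaa2.

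The adult heart draws much of its ATP from fatty acids. A fatty acid that enters the cardiomyocyte is first activated to acyl-CoA by an acyl-CoA synthetase, then passed over the mitochondrial membranes by the carnitine palmitoyltransferases, which malonyl-CoA inhibits at the outer membrane. In the matrix each round of β-oxidation runs through a dehydrogenase, a hydratase, a further dehydrogenase and a thiolase, and the electrons pass over the electron transfer flavoprotein to the respiratory chain.

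RNA came from the left ventricle of 16 female rats, all aged about 7 months, with 1 Affymetrix RAE 230 2.0 array per rat and 4 rats in each of 4 groups. The rats belonged to generation 16 of 2 lines bred from N:NIH stock for high or low running capacity on a treadmill test at about 11 weeks of age, named High Capacity Runner (HCR) and Low Capacity Runner (LCR). HCR trained and LCR trained rats ran uphill intervals for 1.5 hours on 5 days per week over 8 weeks. HCR sedentary and LCR sedentary rats were age-matched and did not train. No drug, transgene or deletion was part of the design, and a line difference covers every heritable difference between both breeding populations. The study asked how inborn running capacity and endurance training are reflected in the RNA of the heart.

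Values are log2 expression values, so a difference of 1 is a doubling, and levels were compared between rats for the same probe set only. A gene was called changed at an adjusted p of 0.05 or less from limma, with Benjamini-Hochberg adjustment over all 31042 probe sets. Over the 14217 genes, the sedentary line comparison called 895 genes, the trained line comparison 13, and training called 0 genes in HCR and 0 in LCR, where 2091 and 962 genes had an unadjusted p under 0.05. The means of 11 ventricular cardiomyocyte genes lay between 13.41 and 13.60 in every rat, and those of 4 atrial genes between 7.22 and 8.92. Levels of different genes are not compared here, so these means describe the samples and do not test the tissue label. HCR sedentary rat 5 is labelled female but read between 3.76 and 4.94 on the 4 probe sets of Xist, the RNA that silences an X chromosome in females, against 7.56 to 10.34 in the other 15 rats. That rat was kept, and calls of members or pathway genes that were lost without it are named with the value they then had. In whole tissue, fewer cells of a type and less RNA per cell cannot be told apart.

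Promoters are shown for the only 2 members with a called probe set, Cpt1a and Eci1, which were singled out after their values were seen. Each sequence is the 300-base window that RefSeq's promoter table gives across the gene start on GRCr8, 5′ to 3′ along the gene. Capitals mark the nuclear receptor hexamer AGGTCA on either strand, the unit from which binding sites of PPARα and related nuclear receptors are built. The Cpt1a window lies at chr1:209995910-209996209, plus strand, and the Eci1 window at chr10:13961000-13961299, plus strand.
Cpt1a: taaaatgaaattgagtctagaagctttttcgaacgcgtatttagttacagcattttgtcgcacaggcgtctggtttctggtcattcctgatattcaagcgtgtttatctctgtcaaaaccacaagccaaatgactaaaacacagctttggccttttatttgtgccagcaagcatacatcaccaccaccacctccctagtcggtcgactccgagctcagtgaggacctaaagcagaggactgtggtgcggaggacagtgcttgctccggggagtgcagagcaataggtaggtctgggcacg
Eci1: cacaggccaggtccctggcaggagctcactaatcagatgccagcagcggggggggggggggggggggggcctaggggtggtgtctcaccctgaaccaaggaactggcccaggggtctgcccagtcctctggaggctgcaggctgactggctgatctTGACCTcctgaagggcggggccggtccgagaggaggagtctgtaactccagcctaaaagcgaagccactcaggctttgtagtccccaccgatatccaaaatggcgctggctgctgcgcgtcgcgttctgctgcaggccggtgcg
The Eci1 window held 1 hexamer, read on the minus strand, and the Cpt1a window held none. Of the 33 listed genes, 29 had a promoter in the RefSeq table. The hexamer on either strand was found in 7 of these 29 windows (24.1%), those of Acacb, Acadvl, Echs1, Eci1, Eci2, Hadhb and Hsd17b4, against 16.2% of all 33469 rat promoters of this length. The direct repeat AGGTCANAGGTCA, which contains the hexamer at both ends, was found in 0 of the 29 windows and in 18 promoters overall (0.0538%). A match describes these letters in this window and says nothing of a factor that binds there.

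No enzyme of the list was called on its main probe set by line or by training. In the sedentary line comparison limma called 0 of 32 members, beside 6.30% of all genes, and 3 members had an unadjusted p under 0.05, beside 31.4% of all genes. These 3 were higher in HCR, beside 13.0% of all genes. The share of all genes called rested on single rats, since 895 genes became 21 (0.148%) without LCR sedentary rat 6, 63 without HCR sedentary rat 4 and 71 without HCR sedentary rat 5, each with 0 members called. In the trained line comparison it called 0 of 32, beside 0.0914% of all genes, with 3 members at an unadjusted p under 0.05, beside 8.40%. Training called 0 of 32 members in HCR and 0 of 32 in LCR, beside 0% of all genes in both, with 3 members in each line at an unadjusted p under 0.05, beside 14.7% of all genes in HCR and 6.77% in LCR. The difference between the training responses of both lines was called for 0 of 32 members, beside 0% of all genes, with 0 members at an unadjusted p under 0.05 beside 10.7%. Averaged over training states, the line difference called 0 of 32 members beside 4.92%, with 5 members at an unadjusted p under 0.05 beside 27.9%. Averaged over lines, the training difference called 0 of 32 beside 0.00703%, with 6 members at an unadjusted p under 0.05, beside 10.6% of all genes. These 6 were higher in trained rats, beside 5.64% of all genes.

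The intervals limit how large a missed difference in the signal of a main probe set could be. Each is a 95% interval taken alone, without allowance for the number of members and comparisons, and dimmer probe sets are not covered. Differences in RNA can be larger than those in signal, which the processing compresses on dim probe sets such as those of Acadsb, Acox3, Acsl3 and Acsl4. The standard errors of the members' log2 differences between groups had a median of 0.082 and ran from 0.046 to 0.18. All 32 members had 95% intervals inside a 2-fold change in all 7 comparisons. Inside a 1.5-fold change lay 31 members for the line difference in trained rats, 31 for that in sedentary rats, 32 for training in HCR and 30 for training in LCR. The widest reach in these 4 comparisons was that of Cpt1a, whose interval extended to 1.66-fold for training in LCR. At a bound of 1.2-fold, 17 members stayed inside for the line difference in trained rats, 10 for that in sedentary rats, 15 for training in HCR and 18 for training in LCR, so changes of that size were not bounded for the rest.

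**Figure D1:**
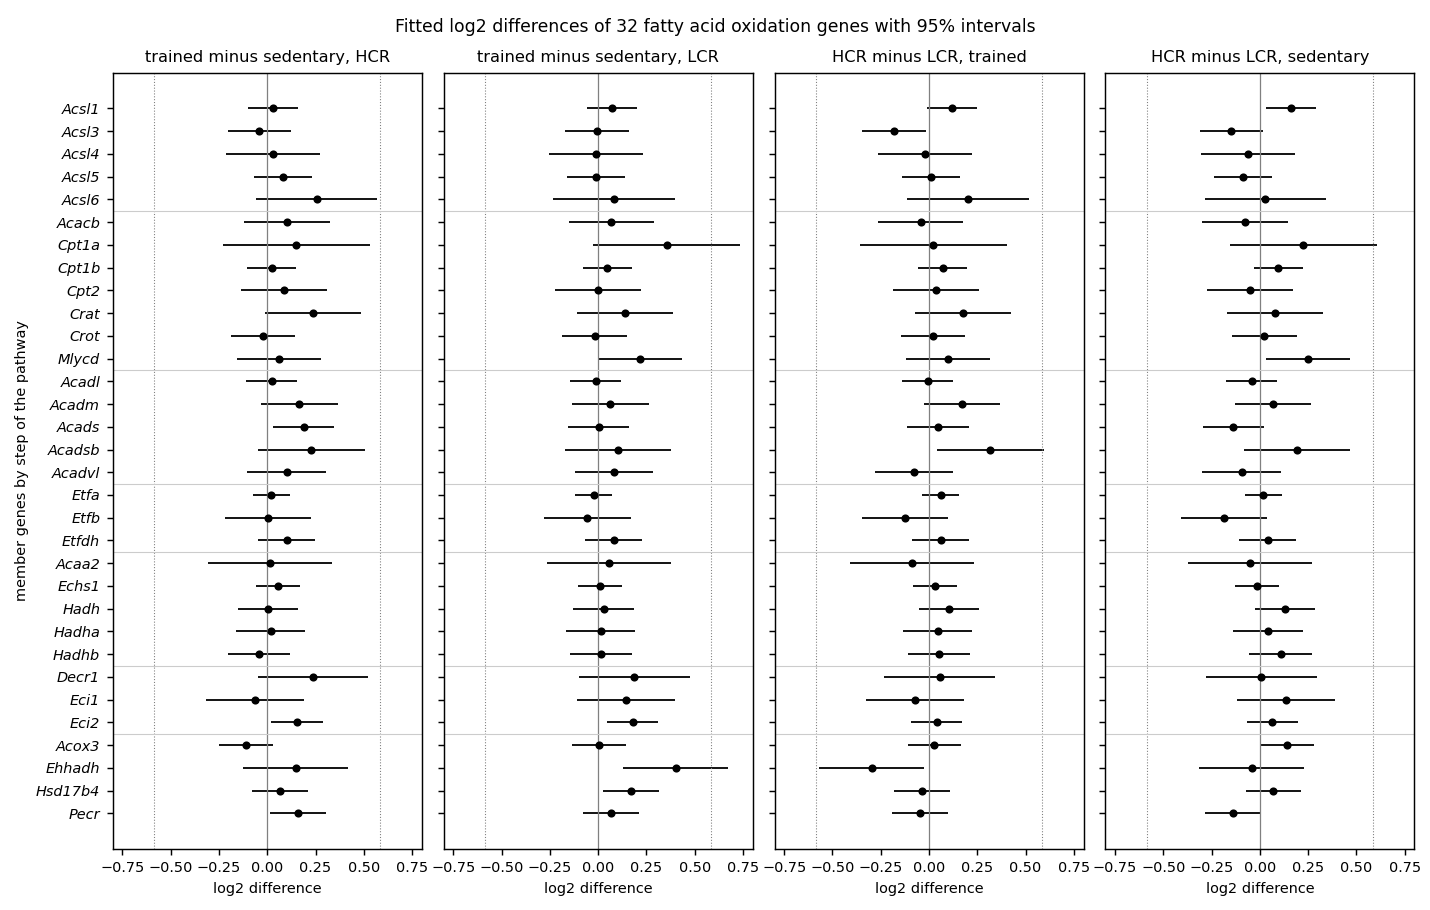
Fitted log2 differences (x axis) of the 32 measured genes, ordered by step of the pathway (y axis), for training in HCR, training in LCR, the line difference in trained rats and the line difference in sedentary rats. Points are limma estimates over 16 arrays, bars are 95% intervals, and dotted lines mark a 1.5-fold change in either direction. No gene was called, and only a few bars reach past the dotted lines.

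The first step is the activation of fatty acids by acyl-CoA synthetases. Acsl1, the main long-chain synthetase of heart muscle, had the lowest p of all members for the sedentary line comparison. Acsl1 read 12.10, 12.11, 12.20 and 12.12 in HCR trained rats, 12.09, 12.03, 12.10 and 12.18 in HCR sedentary rats, 11.93, 12.12, 12.03 and 11.96 in LCR trained rats, and 11.87, 12.08, 11.84 and 11.97 in LCR sedentary rats. Both LCR groups reached lower values than any HCR rat, but each overlapped the HCR group beside it. The line difference was 0.16 ± 0.061 (95% interval 0.03 to 0.29, adjusted p = 0.112) in sedentary rats and 0.12 ± 0.061 (95% interval -0.01 to 0.25, adjusted p = 0.719) in trained rats. Averaged over training states it was 0.14 ± 0.043 (95% interval 0.05 to 0.23, adjusted p = 0.0716), short of the threshold. Another Acsl1 probe set read 0.31 ± 0.087 higher in HCR sedentary than in LCR sedentary rats (adjusted p = 0.0513) and the dimmest of the 3 read -0.13 ± 0.055 (adjusted p = 0.134), so the probe sets of the gene differed in sign.

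Acsl3, a synthetase of the endoplasmic reticulum and lipid droplets, ran the other way. Acsl3 read 5.48, 5.47, 5.40 and 5.38 in HCR trained rats, 5.68, 5.48, 5.36 and 5.38 in HCR sedentary rats, 5.47, 5.63, 5.63 and 5.72 in LCR trained rats, and 5.62, 5.51, 5.56 and 5.80 in LCR sedentary rats. The highest HCR trained value, 5.48, lay above the lowest LCR trained value, 5.47, and the sedentary groups overlapped further. The line difference was -0.18 ± 0.078 (95% interval -0.35 to -0.02, adjusted p = 0.631) in trained rats and -0.16 ± 0.055 (95% interval -0.28 to -0.05, adjusted p = 0.0901) averaged over training states. The Acsl3 probe set was dim, with a mean under the median of 5.90 over all probe sets, as were those of Acsl4, Acadsb and Acox3, while the other 28 members lay above it. Acsl4, which prefers arachidonic acid, Acsl5 and Acsl6 had differences between -0.09 and 0.26 over the 4 pairwise comparisons. The largest of these was Acsl6 for training in HCR, 0.26 ± 0.15 (95% interval -0.06 to 0.57, adjusted p = 0.442). HCR trained rat 4 stood at 8.61 there, against 7.96 to 8.28 in the other HCR trained rats. A dimmer Acsl6 probe set, near the lowest signals of the array, read -0.07 ± 0.071 (95% interval -0.22 to 0.08, adjusted p = 0.685) for the same comparison, with all HCR trained rats, at 4.056 to 4.084, just below all HCR sedentary rats, at 4.085 to 4.176. The share of all genes with these groups apart on any probe set was not computed, so no weight is given to this case. The dimmer Acsl5 probe set also differed in sign from the main one. It read -0.11 ± 0.090 (95% interval -0.30 to 0.09, adjusted p = 0.603) for training in HCR, where the main one read 0.08 ± 0.071 (95% interval -0.07 to 0.23, adjusted p = 0.605), and 0.12 ± 0.090 (95% interval -0.08 to 0.31, adjusted p = 0.405) between lines in sedentary rats, where the main one read -0.09 ± 0.071 (95% interval -0.24 to 0.06, adjusted p = 0.431).

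The next enzymes form the carnitine and malonyl-CoA gate. Cpt1b, the carnitine palmitoyltransferase of the outer membrane in muscle and the entry step of mitochondrial oxidation, varied little between rats. Cpt1b read 12.11, 12.09, 12.04 and 12.22 in HCR trained rats, 12.14, 12.09, 12.003 and 12.14 in HCR sedentary rats, 11.95, 12.13, 12.15 and 11.96 in LCR trained rats, and 11.94, 12.04, 11.98 and 12.03 in LCR sedentary rats. All 4 LCR sedentary rats lay at or below 12.04, yet HCR sedentary rat 5, at 12.003, fell among them. The line difference in sedentary rats was 0.10 ± 0.060 (95% interval -0.03 to 0.22, adjusted p = 0.302). The training difference was 0.02 ± 0.060 in HCR and 0.05 ± 0.060 in LCR.

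Cpt2, which rebuilds acyl-CoA on the matrix side, overlapped between all groups. Cpt2 read 10.96, 10.91, 10.91 and 11.06 in HCR trained rats, 10.94, 10.63, 10.85 and 11.09 in HCR sedentary rats, 10.84, 11.05, 11.08 and 10.73 in LCR trained rats, and 10.76, 11.12, 10.77 and 11.06 in LCR sedentary rats. The range of values within each group was wider than any difference between group means. Its line difference in sedentary rats was -0.05 ± 0.11 (95% interval -0.27 to 0.17, adjusted p = 0.772), and its training difference was 0.09 ± 0.11 in HCR and -0.0023 ± 0.11 in LCR.

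Mlycd, malonyl-CoA decarboxylase, removes the inhibitor of carnitine palmitoyltransferase 1. Mlycd read 10.20, 10.13, 10.09 and 10.07 in HCR trained rats, 10.07, 9.97, 9.95 and 10.25 in HCR sedentary rats, 10.05, 10.14, 10.19 and 9.72 in LCR trained rats, and 9.73, 10.01, 9.61 and 9.90 in LCR sedentary rats. LCR sedentary rats held 3 of the 4 lowest values and LCR trained rat 4, at 9.72, the other. The line difference was 0.25 ± 0.10 (95% interval 0.03 to 0.47, adjusted p = 0.134) in sedentary rats, the largest of any member there, and 0.10 ± 0.10 in trained rats. In LCR the training difference was 0.21 ± 0.10 (95% interval -0.0025 to 0.43, adjusted p = 0.893). Acacb, the mitochondrial acetyl-CoA carboxylase that makes malonyl-CoA, differed by -0.08 ± 0.11 between lines in sedentary rats and by 0.10 ± 0.11 with training in HCR.

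Crat, carnitine acetyltransferase, which exchanges acetyl groups between CoA and carnitine in the matrix, and Eci2 were the only 2 members whose main probe set put all HCR trained rats above the HCR sedentary rats, beside 4.51% of all genes. It read 11.10, 11.06, 11.03 and 11.08 in HCR trained rats, against 10.82, 10.62, 10.97 and 10.91 in HCR sedentary rats. With training it differed by 0.24 ± 0.12 (95% interval -0.01 to 0.48, adjusted p = 0.384) in HCR and 0.14 ± 0.12 in LCR, where the groups overlapped. Crot, the peroxisomal carnitine octanoyltransferase, stayed between 6.66 and 7.01 in all 16 rats, with pairwise differences from -0.02 to 0.02.

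The acyl-CoA dehydrogenases open each round of β-oxidation, and each handles a range of chain lengths. Acadvl acts on very long chains at the inner membrane. Acadvl read 11.32, 11.03, 11.14 and 10.97 in HCR trained rats, 11.01, 10.87, 11.07 and 11.11 in HCR sedentary rats, 11.16, 11.27, 11.34 and 11.01 in LCR trained rats, and 10.92, 11.28, 11.02 and 11.22 in LCR sedentary rats. Every group overlapped every other. The training difference was 0.10 ± 0.096 (95% interval -0.10 to 0.30, adjusted p = 0.647) in HCR and 0.08 ± 0.096 in LCR, and the line difference in sedentary rats was -0.10 ± 0.096.

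Acadm acts on medium chains, and its inherited loss is a disorder of fatty acid oxidation in humans. Acadm read 13.19, 12.91, 12.91 and 12.99 in HCR trained rats, 13.01, 12.83, 12.80 and 12.70 in HCR sedentary rats, 12.85, 13.00, 12.86 and 12.61 in LCR trained rats, and 12.63, 12.91, 12.67 and 12.86 in LCR sedentary rats. HCR trained rats lay at 12.91 or above, a level also reached by 1 HCR sedentary rat and 1 LCR trained rat and, to rounding, by 1 LCR sedentary rat. With training it differed by 0.17 ± 0.094 (95% interval -0.03 to 0.36, adjusted p = 0.427) in HCR and 0.06 ± 0.094 in LCR, and the line difference in trained rats was 0.17 ± 0.094 (95% interval -0.03 to 0.37, adjusted p = 0.756).

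Acads, the short-chain dehydrogenase, had the lowest p of all members for training in HCR. Acads read 11.18, 10.96, 10.93 and 10.86 in HCR trained rats, 10.79, 10.65, 10.91 and 10.82 in HCR sedentary rats, 10.94, 11.08, 10.87 and 10.85 in LCR trained rats, and 10.91, 11.02, 10.88 and 10.92 in LCR sedentary rats. The lowest HCR trained value, 10.86, lay under the highest HCR sedentary value, 10.91, so the groups overlapped by these 2 rats. The training difference was 0.19 ± 0.075 (95% interval 0.03 to 0.35, adjusted p = 0.303) in HCR and 0.0026 ± 0.075 (95% interval -0.16 to 0.16, adjusted p = 0.998) in LCR. The difference between both responses was 0.19 ± 0.11 (95% interval -0.04 to 0.41, adjusted p = 0.565). Without HCR sedentary rat 5 the HCR difference was 0.23 (adjusted p = 0.469).

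Acadsb acts on short branched chains from isoleucine breakdown as well as on short fatty acids. Acadsb read 5.43, 5.33, 5.30 and 4.84 in HCR trained rats, 5.00, 5.15, 5.07 and 4.77 in HCR sedentary rats, 5.05, 4.80, 5.02 and 4.76 in LCR trained rats, and 4.99, 4.54, 5.00 and 4.70 in LCR sedentary rats. HCR trained rats 3, 4 and 5 lay above all 8 LCR rats, and HCR trained rat 6, at 4.84, lay among them. The line difference in trained rats was 0.32 ± 0.13 (95% interval 0.04 to 0.59, adjusted p = 0.612), and averaged over training states it was 0.25 ± 0.092 (95% interval 0.06 to 0.45, adjusted p = 0.111). Acadl, the long-chain dehydrogenase of rodents, was flat in comparison, between 12.91 and 13.15 in all rats, with pairwise differences from -0.04 to 0.02.

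Electrons from these dehydrogenases pass to the electron transfer flavoprotein, built from Etfa and Etfb, and on to Etfdh, its ubiquinone oxidoreductase. Etfa stayed between 11.61 and 11.79 in all 16 rats and had the smallest standard error of the list. Its line difference in sedentary rats was 0.02 ± 0.046 (95% interval -0.08 to 0.11, adjusted p = 0.818). Etfb was the member furthest below 0 in that comparison, -0.19 ± 0.11 (95% interval -0.41 to 0.04, adjusted p = 0.256). Etfdh differed by 0.10 ± 0.070 with training in HCR and by 0.08 ± 0.070 in LCR.

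The hydratase, dehydrogenase and thiolase steps close the round. Hadha and Hadhb are the subunits of the mitochondrial trifunctional protein, which carries out these steps on long chains. Hadha read 12.18, 11.99, 12.10 and 11.95 in HCR trained rats, 12.07, 11.97, 12.06 and 12.05 in HCR sedentary rats, 12.001, 12.16, 12.09 and 11.79 in LCR trained rats, and 11.79, 12.14, 11.98 and 12.08 in LCR sedentary rats. LCR trained rat 4 and LCR sedentary rat 2, both at 11.79, lay below the other 14 rats. The Hadha training difference was 0.02 ± 0.085 (95% interval -0.16 to 0.20, adjusted p = 0.945) in HCR and 0.01 ± 0.085 (95% interval -0.17 to 0.19, adjusted p = 0.995) in LCR, and the line difference in sedentary rats was 0.04 ± 0.085 (95% interval -0.14 to 0.22, adjusted p = 0.769). Hadhb, whose 2 lowest values also came from LCR trained rat 4 and LCR sedentary rat 2, at 12.93 and 12.87, had pairwise differences from -0.04 to 0.11. Hadh, the short-chain hydroxyacyl-CoA dehydrogenase, averaged 0.12 ± 0.052 (95% interval 0.01 to 0.23, adjusted p = 0.186) between lines. Echs1, the short-chain hydratase, spanned 11.49 to 11.67 in all rats. Acaa2, the mitochondrial thiolase, had wider groups, with SDs up to 0.28, and pairwise differences from -0.09 to 0.06.

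Unsaturated chains need auxiliary isomerases and a reductase before they can pass through the cycle. Eci2, an enoyl-CoA isomerase found in mitochondria and peroxisomes, had the lowest p of any member for training averaged over lines. Eci2 read 10.68, 10.74, 10.69 and 10.67 in HCR trained rats, 10.49, 10.48, 10.59 and 10.59 in HCR sedentary rats, 10.61, 10.69, 10.79 and 10.53 in LCR trained rats, and 10.35, 10.57, 10.47 and 10.51 in LCR sedentary rats. All HCR trained rats lay above all HCR sedentary rats, while in LCR trained rat 4, at 10.53, lay below LCR sedentary rat 3, at 10.57. With training it differed by 0.15 ± 0.063 (95% interval 0.02 to 0.29, adjusted p = 0.308) in HCR, 0.18 ± 0.063 (95% interval 0.05 to 0.31, adjusted p = 0.709) in LCR and 0.17 ± 0.044 (95% interval 0.07 to 0.26, adjusted p = 0.275) averaged over lines. Decr1, the dienoyl-CoA reductase of mitochondria, had training differences of similar size with wider errors, 0.24 ± 0.14 (95% interval -0.05 to 0.52, adjusted p = 0.435) in HCR and 0.19 ± 0.14 (95% interval -0.10 to 0.47, adjusted p = 0.971) in LCR.

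Peroxisomes shorten very long and branched chains. Ehhadh, the bifunctional hydratase and dehydrogenase of the peroxisome, had the largest pairwise difference of the list. Ehhadh read 6.19, 5.96, 6.01 and 6.10 in HCR trained rats, 6.09, 6.00, 5.79 and 5.79 in HCR sedentary rats, 6.28, 6.15, 6.70 and 6.31 in LCR trained rats, and 5.60, 5.92, 6.23 and 6.09 in LCR sedentary rats. LCR trained rat 3 was the highest of the 16 and LCR sedentary rat 2 the lowest, and LCR sedentary rat 5, at 6.23, overlapped the LCR trained group. The training difference was 0.40 ± 0.13 (95% interval 0.13 to 0.67, adjusted p = 0.629) in LCR, a fold of 1.32, and 0.15 ± 0.13 (95% interval -0.12 to 0.42, adjusted p = 0.609) in HCR. The difference between both responses was -0.25 ± 0.18 (95% interval -0.64 to 0.13, adjusted p = 0.632). The line difference in trained rats was -0.30 ± 0.13 (95% interval -0.57 to -0.03, adjusted p = 0.631). Without LCR sedentary rat 2 the LCR training difference was 0.28 (adjusted p = 0.707).

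Hsd17b4, the other bifunctional enzyme of the peroxisome, was the only member whose main probe set put all LCR trained rats above the LCR sedentary rats, beside 1.32% of all genes. It read 10.32, 10.24, 10.38 and 10.12 in LCR trained rats, against 10.12, 10.09, 10.06 and 10.11 in LCR sedentary rats, and the nearest rats, LCR trained rat 4 and LCR sedentary rat 2, were equal to 2 decimals. With training it differed by 0.17 ± 0.068 (95% interval 0.03 to 0.31, adjusted p = 0.824) in LCR and 0.07 ± 0.068 in HCR. Dimmer probe sets of Acsl1 and Cpt1a also put all LCR trained rats above all LCR sedentary rats. The share of all genes that do so on any probe set was not computed. Pecr, which reduces trans-2-enoyl-CoA in the peroxisome, had a training difference of 0.16 ± 0.068 (95% interval 0.01 to 0.30, adjusted p = 0.326) in HCR and 0.07 ± 0.068 in LCR. Acox3, an oxidase of branched chains, was the member furthest below 0 for training in HCR, -0.11 ± 0.065 (95% interval -0.25 to 0.03, adjusted p = 0.448), and differed by 0.14 ± 0.065 between lines in sedentary rats.

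**Figure D2:**
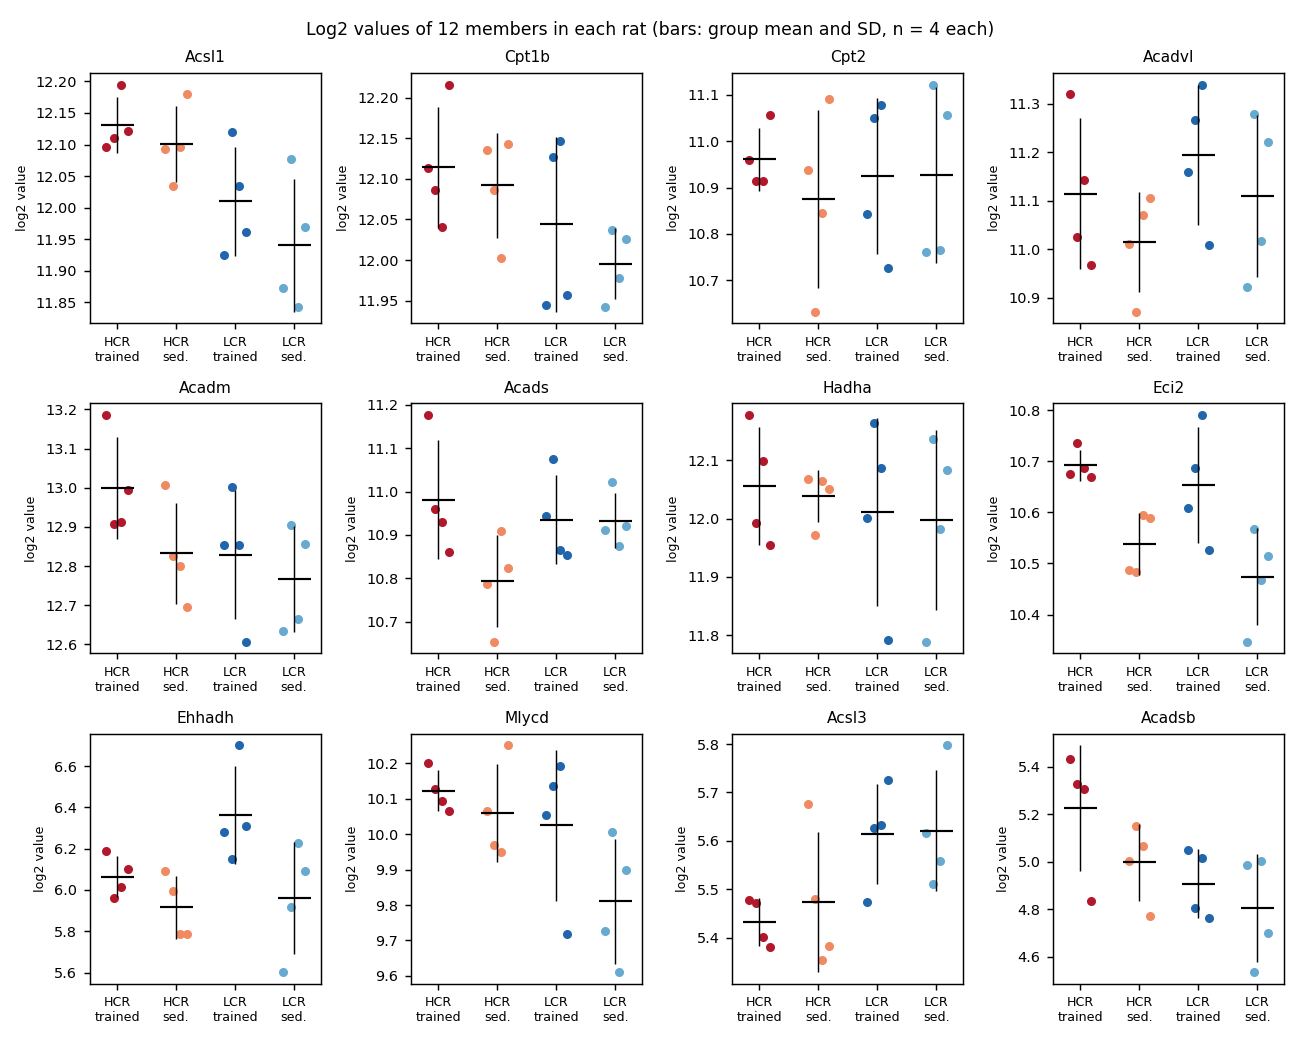
Log2 values (y axis) of 12 genes in each rat, by group (x axis). Points are rats, and bars are the group mean and SD, n = 4 each. The y axes have different ranges, and groups overlap in most panels. HCR trained rats lie apart from HCR sedentary rats for Eci2.

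Most members had a training difference above 0 in both lines, and none of these differences was called. In HCR 27 of 32 members had a difference above 0, with a median of 0.06, beside 51.9% of all genes, with a median of 0.0059. In LCR 24 of 32 were above 0, with a median of 0.06, beside 48.0% of all genes, with a median of -0.0045. In both lines at once 21 of 32 members were above 0, 65.6%, beside 24.0% of all genes, and Acsl3 and Crot were below 0 in both. The HCR and LCR training differences share no rat. Macrophage markers and smooth muscle and pericyte markers also had training medians above 0 in both lines. Ventricular cardiomyocyte markers did so narrowly, at 0.0022 in HCR and 0.025 in LCR. The medians in HCR and LCR were below 0 for endothelial markers (-0.03 and -0.01), atrial markers (-0.315 and -0.41) and skeletal muscle markers (-0.05 and -0.02). Those of the other marker lists differed in sign between lines. Of 8 macrophage markers 6 were above 0 in HCR, with a median of 0.16, and 8 in LCR, with a median of 0.13. Their mean was 7.34 to 7.48 in HCR trained rats, 7.06 to 7.58 in HCR sedentary rats, 7.20 to 7.75 in LCR trained rats and 7.17 to 7.50 in LCR sedentary rats. Of 6 smooth muscle and pericyte markers 6 were above 0 in HCR, with a median of 0.09, and 5 in LCR, with a median of 0.12. Limma called 0 of these 14 markers for training in either line, and their part in the members' training differences was not tested. Members are not independent of each other, since they were measured in the same rats, and no test was made over the list.

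Both training medians stayed above 0 under all scalings, fits and left-out rats that were run. Their size depended on single rats and, in HCR, on the scaling. Without LCR sedentary rat 2 the LCR median was 0.0098 and 19 of 32 members were above 0. Without HCR sedentary rat 4 the HCR median was 0.03, with 23 members above 0, and without HCR sedentary rat 5 it was 0.04, with 25. After quantile normalization of the summarised values, 21 members were above 0 in HCR, 22 in LCR and 16 in both, beside 23.7% of all genes. By step, the 3 auxiliary enzymes had the highest LCR median, 0.18, and the 5 acyl-CoA dehydrogenases the highest HCR median, 0.17, all 5 above 0. The 5 hydratase, dehydrogenase and thiolase members had medians of 0.015 in HCR and 0.014 in LCR.

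**Figure D3:**
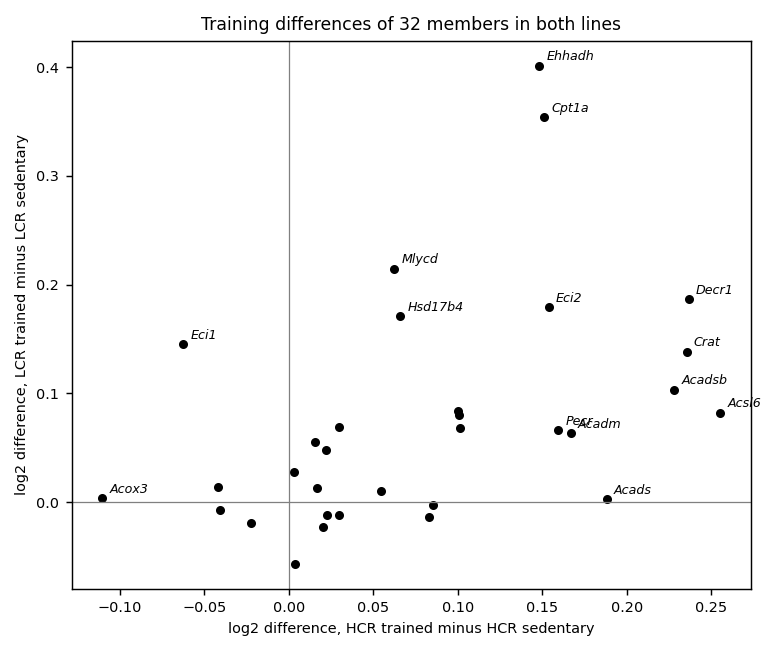
Training difference (log2, trained minus sedentary) in LCR (y axis) against that in HCR (x axis). Each point is 1 of the 32 genes, those with the largest differences are named, and the lines mark 0. In the upper right quadrant lie 21 genes, and none was called in either line. After quantile normalization 16 lie there.

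The line differences of the members were small on both sides of 0, and the sign of the median in sedentary rats depended on the scaling. In trained rats 21 of 32 members were above 0, with a median of 0.03, beside 48.6% of all genes. In sedentary rats 19 members were above 0, with a median of 0.03, beside 46.4% of all genes. The same 17 members, 53.1%, were above 0 in both training states, beside 29.1% of all genes, and 9 members, 28.1%, were below 0 in both, beside 34.1%. After quantile normalization the medians were 0.05 in trained rats, with 22 members above 0, and 0.08 in sedentary rats, with 21. With arrays centred on their medians they were 0.02 in trained rats, with 20 members above 0, and -0.03 in sedentary rats, with 13. The median of all genes in sedentary rats was itself -0.08 with centring, against -0.02 as deposited. Without LCR sedentary rat 2 the members' median in sedentary rats was -0.01. On the main probe sets 0 members had HCR and LCR rats apart in either training state, in either direction, beside 8.86% of all genes with HCR sedentary above LCR sedentary rats, 11.4% with HCR sedentary below, 1.54% with HCR trained above LCR trained rats and 1.81% with HCR trained below. A dimmer probe set each of Cpt1a, Eci1 and Hadha put all HCR sedentary rats above all LCR sedentary rats. A dimmer Acsl1 probe set did so as well, while the dimmest Acsl1 probe set put them all below. The share of all genes with the groups apart on any probe set was not computed, so no weight is given to these cases.

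Several features of the sedentary arrays moved with line. The interquartile range of log2 values was 1.97 to 2.10 in HCR sedentary rats, against 2.14 to 2.21 in LCR sedentary rats. The mean of 11 adipocyte markers, 10 of them higher in HCR sedentary rats, was 6.73 to 6.78 in HCR sedentary rats and 6.63 to 6.66 in LCR sedentary rats. The mean of 8 fibroblast markers, 7 of them lower in HCR sedentary rats, was 8.66 to 8.91 in HCR sedentary rats and 8.91 to 9.10 in LCR sedentary rats. The mean of 7 endothelial markers, 6 of them higher in HCR sedentary rats, was 9.14 to 9.20 in HCR sedentary rats and 9.01 to 9.12 in LCR sedentary rats. The mean of 8 neuron and Schwann cell markers, 5 of them higher in HCR sedentary rats, was 6.20 to 6.30 in HCR sedentary rats and 6.09 to 6.15 in LCR sedentary rats. All 6 smooth muscle and pericyte markers were above 0 in that comparison, with Acta2 called at 0.35 (adjusted p = 0.0421), and their mean was 7.43 to 7.69 in HCR sedentary rats and 7.30 to 7.59 in LCR sedentary rats. Of 11 ventricular cardiomyocyte markers 8 were lower in HCR sedentary rats. Their mean was 13.41 to 13.51 in HCR sedentary rats and 13.50 to 13.56 in LCR sedentary rats, which overlapped slightly. Among the fibroblast markers Lum was called lower in HCR sedentary rats, at -0.41 (adjusted p = 0.0403). Chl1 was called higher among the neuron and Schwann cell markers, at 0.37 (adjusted p = 0.0139). Klrd1 was called lower, at -0.84 (adjusted p = 0.0291), though 4 of 7 lymphocyte markers were above 0, with a median of 0.12. These marker calls stand beside 6.30% of all genes called in that comparison. No marker is at 0 on these arrays, since the lowest value of any probe set was 3.24. The part of these features in the line differences was not tested.

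Cpt1a and Eci1 gave a called difference on a dimmer probe set only. Cpt1a encodes the carnitine palmitoyltransferase 1 that prevails in liver, and its main probe set was not called. Cpt1a read 9.53, 9.42, 9.17 and 9.22 in HCR trained rats, 9.50, 9.31, 8.91 and 9.002 in HCR sedentary rats, 9.10, 9.44, 9.53 and 9.17 in LCR trained rats, and 8.57, 9.41, 8.60 and 9.25 in LCR sedentary rats. LCR sedentary rats 2 and 5 lay at 8.57 and 8.60, below the other 14 rats, and the line difference in sedentary rats was 0.23 ± 0.18 (95% interval -0.15 to 0.60, adjusted p = 0.415). On the dimmer probe set, values were 7.55, 7.24, 7.28 and 7.17 in HCR trained rats, 7.58, 7.38, 7.33 and 7.20 in HCR sedentary rats, 7.26, 7.29, 7.39 and 7.25 in LCR trained rats, and 6.92, 7.12, 6.96 and 7.01 in LCR sedentary rats. There all 4 LCR sedentary rats lay below all 12 other rats. For sedentary rats the line difference was 0.37 ± 0.086 (95% interval 0.19 to 0.55, adjusted p = 0.0308), a called change that counts beside 7.33% of all genes with any probe set called. The training difference on that probe set was 0.29 ± 0.086 (95% interval 0.11 to 0.48, adjusted p = 0.589) in LCR, and the difference between the training responses was -0.36 ± 0.12 (95% interval -0.62 to -0.10, adjusted p = 0.475). Without HCR sedentary rat 5 the line difference was 0.38 and no longer called (adjusted p = 0.0788). It was also lost without HCR sedentary rat 4 (0.083), LCR sedentary rat 5 (0.0708) or LCR sedentary rat 6 (0.0874), values that are adjusted p.

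Eci1, the mitochondrial enoyl-CoA isomerase, showed the same split. Its main probe set carries the Affymetrix suffix for probes that can match several transcripts, and read 0.14 ± 0.12 between lines in sedentary rats (adjusted p = 0.468). On the dimmer probe set, values were 6.76, 6.84, 6.81 and 6.93 in HCR trained rats, 6.93, 7.08, 7.17 and 6.92 in HCR sedentary rats, 6.81, 6.83, 6.46 and 6.45 in LCR trained rats, and 6.79, 6.66, 6.76 and 6.35 in LCR sedentary rats. All HCR sedentary rats lay above all LCR sedentary rats, and the trained groups overlapped. The line difference was 0.38 ± 0.11 (95% interval 0.16 to 0.61, adjusted p = 0.0476) in sedentary rats and 0.29 ± 0.075 (95% interval 0.13 to 0.45, adjusted p = 0.0411) averaged over training states, where 5.70% of all genes had a called probe set. The sedentary call was lost after quantile normalization (adjusted p = 0.0555), with arrays centred on their medians (adjusted p = 0.0504) and without HCR sedentary rat 5, at 0.34 (adjusted p = 0.137). Without that rat the average was 0.27 and also not called (adjusted p = 0.0857). Dimmer probe sets of Hadha and Acaa2 also parted from the main ones between lines in sedentary rats. Those of Hadha read -0.38 ± 0.15 (adjusted p = 0.128) and 0.15 ± 0.065 (adjusted p = 0.151), opposite in sign, and that of Acaa2 read 0.32 ± 0.11 (adjusted p = 0.0914).

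**Figure D4:**
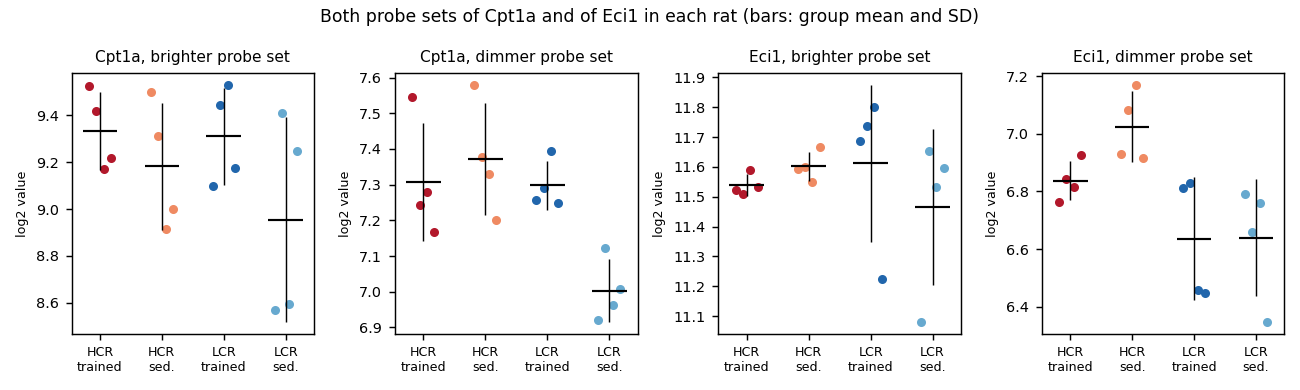
Log2 values (y axis) of both probe sets of Cpt1a and of Eci1 in each rat, by group (x axis). Points are rats, and bars are the group mean and SD, n = 4 each. On the dimmer Cpt1a probe set the LCR sedentary rats lie below all others, and on the dimmer Eci1 probe set below all HCR sedentary rats, while the brighter probe sets overlap.

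The members also varied between rats of the same group. LCR sedentary rat 2 was the lowest of the 16 rats for 11 of 32 members, and its median deviation from the members' means was -0.16. In its own group the other rats had medians from -0.03 to 0.05. LCR trained rat 3 was the highest of all rats for 9 members, among them Ehhadh, Eci1 and Eci2, and had a median deviation of 0.09, while LCR trained rat 4 stood at -0.06. Among HCR trained rats the medians ran from 0.03 to 0.08, and among HCR sedentary rats from -0.09 to 0.05.

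**Figure D5:**
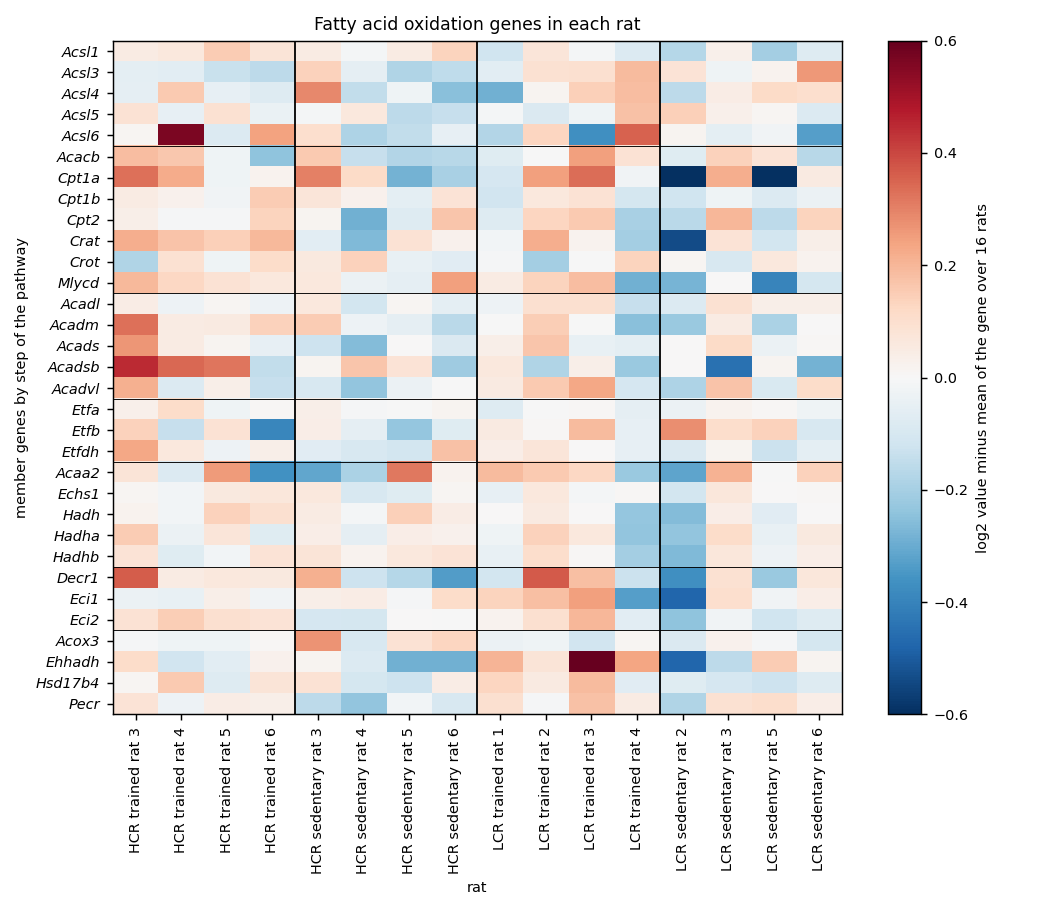
Deviation of each rat's log2 value from the gene's mean over 16 rats (colour), for 32 genes by step (y axis) and 16 rats by group (x axis). Colours end at 0.6 in either direction, which the most extreme 2 values pass slightly. LCR sedentary rat 2 is blue for most genes, and LCR trained rat 3 red for many.

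Within groups, many members varied together from rat to rat. Over the 496 pairs of members, the correlation of deviations from the group means had a median of r = 0.24, against 0.01 over all pairs of the 14217 genes. Of the member pairs 72.2% were above 0, against 51.2% of all pairs. These are descriptions over the same 16 arrays, without a test, and the points share array and RNA. The genes behind the values over all pairs were not matched to the members for signal. The median was 0.23 after quantile normalization and lay between 0.21 and 0.28 when any 1 rat was left out. The closest pairs were Acadm with Decr1 (r = 0.912) and Acadvl with Hadha (r = 0.909). The mitochondrial hydratase, dehydrogenase and thiolase members had the highest median within a step, 0.68. Crot, Acsl5, Acsl6 and Acadsb had medians below 0 with the other members, and the lowest pair was Acads with Crot (r = -0.899).

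Calls among genes around the pathway were by line, and are to be read beside the 4.92% of all genes called averaged over training states and the 6.30% called in sedentary rats. Of 13 measured uptake and carrier genes, 1 was called averaged over training states, Slc27a1, a fatty acid transport protein of the plasma membrane, which differed by -0.27 ± 0.067 (adjusted p = 0.037) and so was lower in HCR. Of 18 other peroxisomal and acyl-CoA dehydrogenase genes, 2 were called there, both higher in HCR. Abcd3, a peroxisomal transporter of acyl-CoA, differed by 0.20 ± 0.050 (adjusted p = 0.0384), and Acad9, which also serves the assembly of respiratory complex I, by 0.26 ± 0.063 (adjusted p = 0.0319). Of 22 genes of fatty acid synthesis and storage, Acaca, the cytosolic acetyl-CoA carboxylase, was called lower in HCR sedentary rats, -0.37 ± 0.096 (adjusted p = 0.042), and averaged over training states, -0.27 ± 0.068 (adjusted p = 0.041). Its dimmer probe set read 0.15 ± 0.076 in sedentary rats, the opposite sign (adjusted p = 0.208). Of 13 thioesterases and side-step genes, Acot9, a mitochondrial acyl-CoA thioesterase, was called lower in HCR sedentary rats, -0.29 ± 0.071 (adjusted p = 0.036). Each of these calls was lost under 1 or more of the other settings. Without HCR sedentary rat 5, Acaca read -0.34 in sedentary rats (adjusted p = 0.121) and -0.25 on average (adjusted p = 0.0844), Acot9 -0.29 (adjusted p = 0.0924) and Abcd3 0.21 (adjusted p = 0.0635), none of them called.

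Acot2, a thioesterase that releases fatty acids from acyl-CoA in the mitochondrial matrix, gave the line difference of lowest adjusted p among these genes, on the dimmest of its 3 probe sets. That probe set was singled out after its values were seen. Its values were 7.19, 7.38, 6.96 and 7.16 in HCR trained rats, 7.11, 7.10, 7.11 and 7.23 in HCR sedentary rats, 6.70, 6.74, 6.76 and 6.47 in LCR trained rats, and 6.57, 6.84, 6.93 and 6.86 in LCR sedentary rats. Every HCR trained rat lay above every LCR trained rat, and every HCR sedentary rat above every LCR sedentary rat. On main probe sets 1.54% of all genes did the former and 8.86% the latter, and the shares over any probe set were not computed. The line difference was 0.42 ± 0.065 (adjusted p = 0.00407) averaged over training states, 0.51 ± 0.092 (adjusted p = 0.0471) in trained rats and 0.33 ± 0.092 (adjusted p = 0.0467) in sedentary rats. Of all genes, 5.70% had any probe set called averaged over training states and 7.33% in sedentary rats. In trained rats 0.0914% were called on the main probe set. The average stayed called in all 16 fits without 1 rat, at 0.38 to 0.46, and under the 6 other settings that gave it a value. The main Acot2 probe set read 0.20 ± 0.11 averaged over training states (adjusted p = 0.262). The other brighter probe set read 0.03 ± 0.094 (adjusted p = 0.856) on average, and in trained rats -0.09 ± 0.13 (adjusted p = 0.952), the opposite sign to the called one. The difference in trained rats lost its call in 12 of those 16 fits and the difference in sedentary rats in 11, both among them without HCR sedentary rat 5, at 0.51 (adjusted p = 0.0741) in trained and 0.34 (adjusted p = 0.112) in sedentary rats. Vldlr encodes a receptor for triglyceride-rich lipoproteins, and 2 of its dimmer probe sets were called higher in HCR sedentary rats, at 0.31 ± 0.077 (adjusted p = 0.0368) and 0.31 ± 0.086 (adjusted p = 0.0478). Without HCR sedentary rat 5 these read 0.32 (adjusted p = 0.0916) and 0.32 (adjusted p = 0.116) and were not called. The first of them was also called averaged over training states, at 0.21 ± 0.054 (adjusted p = 0.0428). Without that rat its average was 0.21 and not called (adjusted p = 0.0752). The main Vldlr probe set had the opposite sign, at -0.31 ± 0.12 (adjusted p = 0.106) in sedentary rats and -0.19 ± 0.083 (adjusted p = 0.179) on average.

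Training called 0 of these genes by limma in either line. Of 18 regulators of fatty acid oxidation, among them the nuclear receptors of the PPAR family and their coactivators, and 16 genes of the tricarboxylic acid cycle, 0 were called by limma in any of the 7 comparisons. The regulator furthest above 0 for training in LCR was Pdk4, a kinase that restrains glucose oxidation, at 0.93 (adjusted p = 0.629). The tricarboxylic acid cycle genes had training medians of -0.01 in HCR and -0.04 in LCR, with 7 and 4 of 16 members above 0, beside 0.06 and 0.06 for the fatty acid oxidation members. The difference between the lists was not tested.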

How the data were processed

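Expression was measured on 1 array per rat in 16 rats. The deposited table holds log2 values of 31099 probe sets, which the authors made with RMA, per the submitters' processing notes, where limma is also named. RMA subtracts background from the perfect-match probes, equalises their distribution between arrays and combines them per probe set, and it compresses differences of dim probe sets. No source used here states the log base, and log2 was assumed because values run from 3.24 to 14.54. Leaving out 57 Affymetrix controls left 31042 probe sets, of which 20826 had 1 gene symbol in the platform annotation, 436 several and 9780 none. A gene was counted once, by the probe set of highest mean, which gave 14217 genes.

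Groups and rat numbers came from the sample titles, so replicates are separate animals. A model with 4 group means and no other term was fitted to all 16 arrays with limma 3.58.1 under R 4.3.3, leaving 12 residual degrees of freedom. No filter on signal was set. Tests were two-sided and adjusted by Benjamini-Hochberg over the 31042 probe sets within each of 7 comparisons. The procedure was tested on simulated data. A value after ± is a standard error unless SD is written, intervals are 95% intervals from the same model, and 4 rats per group limit the precision. Alternatives changed the scaling, the signal filter, the probe set rule, the model, the block and the rats included.

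Members and gene lists were chosen with earlier results of these data known. By rule, each rat's values are given for called members, for the 2 members of lowest p in a comparison without calls, and for Cpt1b, Cpt2, Acadm, Acadvl, Hadha and Acsl1, and called genes of the pathway lists are named. Values of Cpt1a, Eci1, Crat, Hsd17b4, Acot2, Vldlr and Pdk4 and other examples were chosen after they were seen. Promoters came from a RefSeq table on GRCr8 and were searched with Python 3.11.15. No genome was used.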

Additional observations from a re-analysis of the deposited data

Results flagged for a closer look

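Of 128 sets of 4 rats (32 members in 4 groups), 5 held 1 rat that stood apart from the other 3 by more than the 95% limit of Dixon's test. Chance gives about 1 such set in 20. Decr1 read 11.81 in HCR trained rat 3, while the other HCR trained rats reached at most 11.51. Acsl4 read 5.657 in HCR trained rat 4, against 5.425 to 5.454 in the others of that group. Acacb read 7.258 in HCR sedentary rat 3, against 6.924 to 6.964 in the others. Etfdh read 11.54 in HCR sedentary rat 6, against 11.26 to 11.3 in the others. Acaa2 read 12.27 in LCR trained rat 4, against 12.62 to 12.68 in the others. None of these 5 members was called in any comparison.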

How the results depend on the processing

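With 4 rats per group, 1 rat can decide a call, and dim probe sets limit what can be seen of Acadsb, Acox3, Acsl3 and Acsl4. On the main probe sets 0 members were called by limma under all scalings, filters and fits that were run with 16 rats. Taking any probe set of a gene gave 2 members for the line difference in sedentary rats and 1 averaged over training states. Leaving out 1 rat gave 0 to 1 members for the averaged line difference, Acsl3 without HCR sedentary rat 3 (adjusted p = 0.04) and Acsl1 without LCR trained rat 2 (adjusted p = 0.0373). No direction of a named member reversed under any of 327 values for the 14 uncalled results of lowest p.

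The number of genes called over the array depended on the setting. For the line difference in sedentary rats, 895 genes became 275 after quantile normalization, 1590 with arrays centred on their medians, 2256 with array weights and 21 to 1121 without 1 rat, the lowest without LCR sedentary rat 6. It was 63 and 71 without HCR sedentary rats 4 and 5, 285 without HCR sedentary rat 6, and 186 and 193 without LCR sedentary rats 3 and 5. Averaged over training states, 700 became 387 after quantile normalization, 1139 with centring and 293 to 1448 without 1 rat. In trained rats, 13 became 8 with centring, 7 with only the groups compared, 8 with a trended robust fit and 2 to 21 without 1 rat. Training in HCR gave 8 with array weights and 0 to 9 without 1 rat, training in LCR 0 to 2, and training averaged over lines 2 after quantile normalization and 0 to 4 without 1 rat, where all rats gave 1. The causes were not tested.

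The rat numbers of the groups are shared in part, and the titles do not say that they pair rats, so the main fit took no pairing. The 16 same-numbered pairs of arrays had correlations of their deviations from -0.231 to 0.339, with 6 over 0.1. Of 16 arrays 5 correlated best with their own number. The number expected by chance was not computed, so these values do not decide whether equal numbers mark a pairing. With the number as a replicate block, 0 members were called in any comparison, and the genes called were 1596 for the line difference in sedentary rats, 2 for training in HCR and 0 for training averaged over lines.

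Of the 12 called results among the pathway genes, 126 of 276 values under other settings or without 1 rat lost their call and 0 reversed. The Slc27a1, Acaca and Acot9 calls were lost after quantile normalization, at adjusted p of 0.114, 0.105 and 0.158 at the most. The Eci1 call in sedentary rats was lost in 9 and the averaged one in 10 of 16 fits without 1 rat. The settings for the pathway genes, the median pair correlation and the count of members with positive training differences in both lines, which ran from 16 to 23, were chosen after seeing the data. The filter at the median signal gave no value for the 4 dim members.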
